A study of Sus scrofa with 41 samples.

Results

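The genes described here encode the enzymes of glycolysis that skeletal muscle carries in quantity: GPI, PFKM, ALDOA, TPI1, GAPDH, PGK1, PGAM2, ENO3 and PKM, with LDHA, which turns the pathway's end product into lactate. They were chosen by symbol through their pig Ensembl identifiers, and they are 10 of the 25880 genes in the count tables. RNA from the psoas major, the tenderloin muscle along the lumbar spine, was sequenced in 41 uncastrated boars of 2 Danish commercial lines, 13 Danbred Duroc and 28 Danbred Landrace, each pig giving 1 library. All of them ate freely until slaughter at 131 to 166 days of age and their muscle went into RNAlater straight afterwards, so no group received a treatment and the breeds are the only groups. The trait of the study was the feed conversion ratio (FCR), read here as feed eaten per weight gained although the methods word it as the inverse, because the values lie near 2. It ran from 1.83 to 2.18 in Duroc (median 1.94) and from 1.92 to 2.25 in Landrace (median 2.1), and on this reading a low value belongs to an efficient pig. Pigs are named by breed and replicate number.

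Glycolysis splits glucose into pyruvate in the cytosol and makes ATP without oxygen. Fast-twitch fibres depend on it most, and they hold its enzymes among their most abundant proteins. Several steps have separate isozymes for muscle and for other tissues, and PFKM, ALDOA, PGAM2, ENO3 and LDHA are the forms typical of skeletal muscle.

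Each library held 22188911 to 25954816 read pairs counted on genes (median 25243577), which was 69.9% to 80.9% of its pairs. The RNA integrity number (RIN), an electrophoresis score in which a low value marks degraded RNA, was 7 to 8.8 in Duroc and 6.5 to 8.3 in Landrace; Landrace 1 (6.5) and Landrace 27 (6.6) were the lowest. The labels give 5 batches, which the methods tie to slaughter days: batch 1 held 1 Duroc, and the other 4 held 2 to 4 Duroc and 2 to 12 Landrace each. The skeletal muscle genes ACTA1, CKM and DES made up a summed 101440 CPM or more in every pig, so the labelled tissue carried its defining markers; CPM are counts scaled to a total of 1000000 per library, after correction by the trimmed mean of M values (TMM). MYH6, a myosin heavy chain known from the heart, was also present, at a median of 3081 CPM in Duroc and 2181 CPM in Landrace. In bulk tissue, fewer cells of a type and less RNA per cell cannot be told apart. The p-values below measure the spread between pigs.

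TPI1, triosephosphate isomerase (ENSSSCG00000000685, chromosome 5, 63839473 to 63842853 on Sscrofa11.1), had almost no unstranded counts: 0 to 7 per pig, with a median of 2. When the same pairs were assigned by strand, its sense and antisense columns together held 52544 to 103637 counts (median 81061), split almost evenly between strands. SPSB2, a gene for an E3 ubiquitin ligase adaptor, had 5 to 48 unstranded counts and a strand sum of 52550 to 103682. Less the unstranded counts, the strand sums of the genes differed by at most 15 counts in a pig, so these pairs were counted for TPI1 on one strand and SPSB2 on the other, and a pair covering both genes goes into neither in the unstranded column. The kit did not mark strand, so the reads of the pair of genes cannot be told apart. TPI1 therefore failed the filter on low counts, 9 of the 10 genes were tested, and the pooled TPI1 and SPSB2 signal is given only where it is named. For the other 9 genes the strand sum was 1.00 to 1.018 times the unstranded count.

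The 9 measured genes took 11.7% ± 1.08 (SD, n = 13) of the counts on genes in Duroc and 12.5% ± 1.47 (SD, n = 28) in Landrace. GAPDH and ALDOA ranked 2 and 3 of all genes by total count, behind the actin gene ACTA1 at a mean of 10.5%. GAPDH took 3.98% ± 0.498 in Duroc and 4.48% ± 0.614 in Landrace, and ALDOA took 4.02% ± 0.398 and 4.36% ± 0.578. These 2 genes thus held most of the glycolytic read pairs. ENO3 ranked 14 with 1.26% in Duroc and 1.33% in Landrace, and PKM ranked 22 with 0.937% and 0.866%. LDHA (rank 33), PGAM2 (39), PFKM (50), GPI (51) and PGK1 (75) each took between 0.116% and 0.545% in either breed. These are shares of read pairs, and since no exon lengths were at hand they give no order of transcript levels between genes. The share of PFKM varied most between pigs (coefficient of variation 24.1%) and that of ALDOA least (12.9%), an order that held for these shares only: in TMM-scaled CPM the values were 19.5% for PFKM and 24.1% for ALDOA, with PKM highest (24.2%) and PGK1 lowest (14.3%).

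Landrace 8 stood apart from the other 40 pigs. All 9 measured genes had their lowest CPM of all pigs in this animal, as did 612 of the 11146 genes tested (5.49%). The 9 genes took 6.81% of its counts, against 10.0% in the next lowest pig, Duroc 8. GPI stood at 1030 CPM there, with the next lowest pig at 1781 CPM, and PFKM at 1057 CPM, with the next lowest at 1504 CPM. Its depth (24774709 counts) and RIN (7.8) lay inside the range of the others, and its FCR was 2.22. Markers of other fibre and cell types moved with it: the summed level of 6 slow-fibre genes was the highest of the 41 pigs (18463 CPM) and that of 5 fast-fibre genes the lowest (19961 CPM), while the adipocyte sum (363 CPM) and MYH6 (7660 CPM) were the highest. Their part in the low glycolytic levels was not tested, and results that rest on this pig are given with and without it. That exclusion was chosen after the values were seen.

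In the order of the pathway, GPI (ENSSSCG00000002873, chromosome 6, 44038374 to 44069331), which turns glucose 6-phosphate into fructose 6-phosphate, stood at 1875 to 3385 CPM in Duroc (median 2209) and 1030 to 3247 CPM in Landrace (median 2460). PFKM (ENSSSCG00000021129, chromosome 5, 78475473 to 78525052), the muscle form of phosphofructokinase and the committed, regulated step, ranged from 1620 to 2938 CPM in Duroc (median 2319) and from 1057 to 3333 CPM in Landrace (median 2464). For each of these genes 10 of 13 Duroc pigs lay below the Landrace median, and the ranges of the breeds overlapped. ALDOA (ENSSSCG00000032556, chromosome 3, 18246036 to 18260167) is the aldolase that splits the sugar bisphosphate into triose phosphates. It stood at 26629 to 63811 CPM in Duroc (median 36894) and 20084 to 70284 CPM in Landrace (median 42849). The combined TPI1 and SPSB2 signal, from the isomerase step that follows, was 2345 to 4108 CPM in Duroc (median 2999) and 2103 to 5028 CPM in Landrace (median 3245). For ALDOA, 9 of 13 Duroc pigs were below the Landrace median.

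The payoff steps began with GAPDH (ENSSSCG00000000694, chromosome 5, 64129678 to 64135194), the NADH-forming dehydrogenase that is often used as a reference gene. It ranged from 25025 to 56630 CPM in Duroc (median 38256) and from 21235 to 67973 CPM in Landrace (median 45374), and 10 of 13 Duroc pigs lay below the Landrace median. GAPDH has processed pseudogenes, and pairs that mapped to several places were not counted. PGK1 (ENSSSCG00000012440, chromosome X, 62187472 to 62210321), the first ATP-forming enzyme of the pathway, stood at 975 to 1466 CPM in Duroc (median 1105) and 763 to 1537 CPM in Landrace (median 1150). PGAM2 (ENSSSCG00000016720, chromosome 18, 48693832 to 48712787), the muscle phosphoglycerate mutase, ranged from 2350 to 5057 CPM in Duroc (median 3854) and from 1551 to 5617 CPM in Landrace (median 3519). It was the only one of the 9 with the higher median in Duroc. ENO3 (ENSSSCG00000017904, chromosome 12, 51954614 to 51959991), the muscle enolase, stood at 9300 to 16707 CPM in Duroc (median 11134) and 6352 to 19460 CPM in Landrace (median 13362). PKM (ENSSSCG00000001930, chromosome 7, 60971807 to 61032780), the pyruvate kinase that forms ATP at the end of the pathway, ranged from 6410 to 16014 CPM in Duroc (median 8370) and from 4380 to 14763 CPM in Landrace (median 8934). LDHA (ENSSSCG00000013366, chromosome 2, 40814163 to 40827284), the lactate dehydrogenase subunit of muscle, stood at 3794 to 7389 CPM in Duroc (median 4994) and 3029 to 7179 CPM in Landrace (median 5252). No member separated the breeds: every pair of ranges overlapped.

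**Figure D1:**
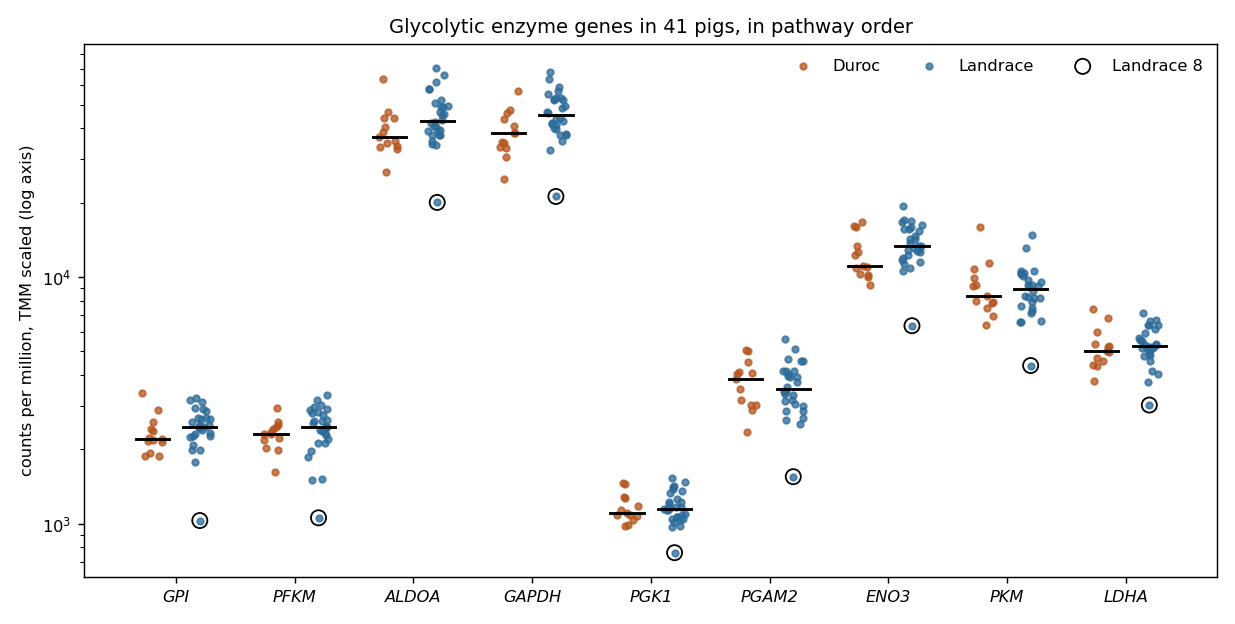
Level of each of the 9 measured genes in each pig, in TMM-scaled CPM on a log axis, by breed (13 Duroc, 28 Landrace); bars mark the medians and Landrace 8 has its own symbol. The ranges of the breeds overlap for all 9 genes, and Landrace 8 is the lowest pig for each of them, for example at 1030 CPM for GPI.

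The breed comparison asked whether the lines differ at the same FCR, RIN, age and batch. GAPDH, ENO3, PFKM, ALDOA, LDHA and PGK1 were higher in Landrace, 6 of the 9 genes tested, none was lower, and GPI, PGAM2 and PKM did not pass. In that model, fitted to all 11146 genes with edgeR's quasi-likelihood test and called at a Benjamini-Hochberg false discovery rate (FDR) under 0.1, 15.6% of all genes were higher and 17.5% lower in Landrace. The median difference over the 9 genes was 0.33 on the log2 scale, against -0.0024 over all genes. GAPDH was higher by 0.48 (SE 0.127, FDR 0.0056) and ENO3 by 0.45 (SE 0.122, FDR 0.0066). The differences of PFKM, ALDOA, LDHA and PGK1 were 0.42, 0.37, 0.33 and 0.26, with FDR between 0.021 and 0.038. GPI came to 0.27 (FDR 0.11), PGAM2 to 0.19 (FDR 0.361) and PKM to -0.03 (95% interval -0.32 to 0.26, FDR 0.905). The pooled TPI1 and SPSB2 signal came to 0.21 (FDR 0.16).

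These differences depended on how libraries were scaled. With scaling to library size alone, the median breed difference of all genes moved to -0.18, and the calls over all genes changed from 1737 higher and 1955 lower in Landrace to 534 higher and 3596 lower. On that scale GAPDH (0.30) and ENO3 (0.27) were the members called higher, 2 of 9 where 4.79% of all genes were, and PKM stood at -0.21. With RIN left out of the model, PFKM (0.26) and LDHA (0.22) no longer passed, nor did ALDOA with FCR left out (0.28), PGK1 with age left out (0.18), or PGK1 (0.19) and LDHA (0.25) with batch as a number. GPI was called higher with DESeq2 (0.28, FDR 0.0926), with age left out (0.26, FDR 0.0818) and with RIN left out (0.32, FDR 0.0577). Without Landrace 8 the same 6 genes were called, beside 15.4% of all genes, with GAPDH at 0.44 and ENO3 at 0.40.

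Within the 4 batches that held both breeds, unadjusted log2 CPM of GAPDH was higher in Landrace in 4 of 4, by 0.29 to 0.42. ALDOA (0.21 to 0.36), ENO3 (0.16 to 0.31) and GPI (0.03 to 0.18) were also higher in all 4 of these batches. The other 5 genes had batches of either sign: LDHA ran from -0.10 to 0.15, PFKM from -0.10 to 0.24 and PKM from -0.24 to 0.30. Breed and FCR were linked in these pigs, since the Duroc pigs were mostly the efficient ones, and age was too (medians 148 and 154.5 days).

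Markers of fibre type and of other cell types moved with breed in the same model. Of the 9 listed fast-fibre genes 5 were in the tables and 4 were higher in Landrace: TNNT3 (0.60), TNNI2 (0.55), ACTN3 (0.55) and TNNC2 (0.53), troponin subunits and an actinin of the fast sarcomere. The general muscle genes ACTA1 (0.38) and CKM (0.24), 2 of 3 tested, were higher too. Of 6 slow-fibre genes measured, TNNI1 (-0.79) and ATP2A2 (-0.73), the slow troponin I and the slow-fibre calcium pump, were lower. The adipocyte genes ADIPOQ (-2.67) and LPL (-1.32), 2 of the 3 tested, and all 3 endothelial genes tested (CDH5, KDR and PECAM1, -0.95 to -1.48) were also lower in Landrace. The fast-fibre sum ran from 27771 to 52488 CPM in Duroc and from 19961 to 71685 CPM in Landrace, the slow-fibre sum from 4617 to 14865 CPM and from 1524 to 18463 CPM, and the adipocyte sum from 119 to 306 CPM and from 49.4 to 363 CPM. All of these ranges overlapped, and their part in the glycolytic difference was not tested. PDGFRA (-1.22), 1 of the 4 fibroblast and matrix genes, and MYH6 (-0.75) were lower as well. Among the 6 leukocyte and 2 red cell markers tested 0 were called, and the neuron marker SNAP25 had at most 3 counts.

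**Figure D2:**
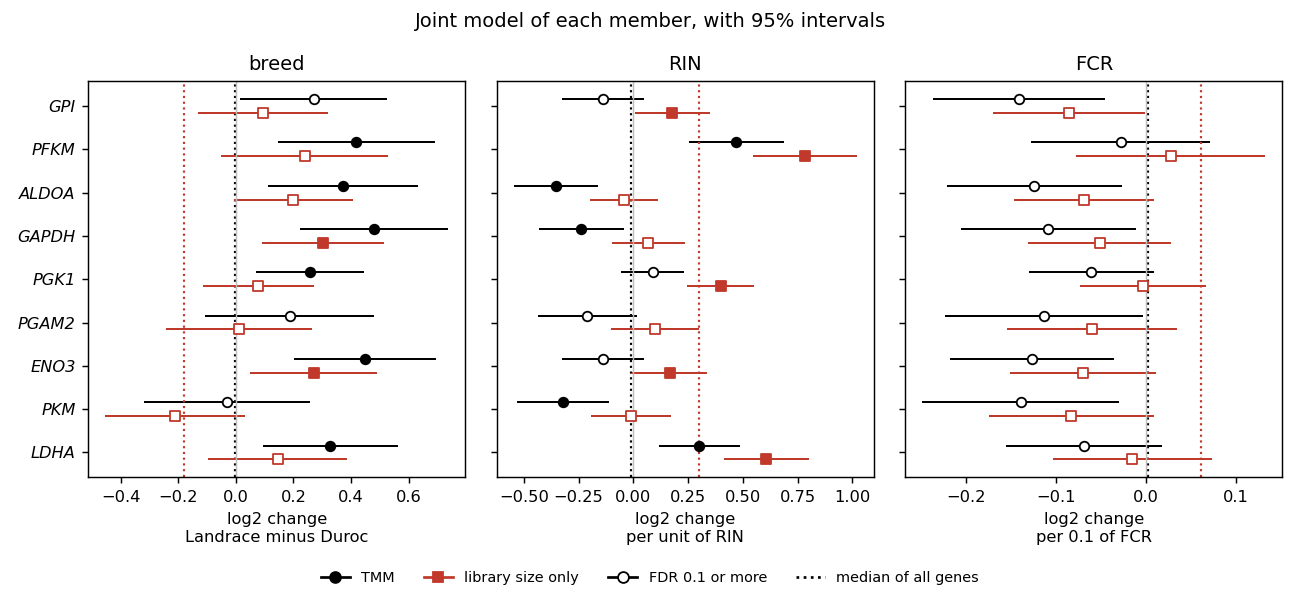
Log2 change of each of the 9 measured genes, with 95% intervals, for breed (Landrace minus Duroc), RIN (per unit) and FCR (per 0.1). The joint model of all 41 pigs is drawn with TMM scaling (black circles) and with library size alone (red squares). Filled symbols mark an FDR under 0.1 over all genes tested. A grey line marks no change and dotted lines the median of all genes on each scale. With TMM, breed differences lie at 0.19 or above for every gene but PKM. RIN slopes with TMM run from -0.35 for ALDOA to 0.47 for PFKM. No FCR slope is filled on either scale.

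The RIN comparison asked how levels vary with RNA integrity. With TMM scaling PFKM and LDHA rose with RIN and ALDOA, PKM and GAPDH fell, though the sign for GAPDH turned (to 0.07) with library size alone, and PGAM2, ENO3, GPI and PGK1 did not pass. In the same model 23.9% of all genes rose and 27.9% fell with RIN, so 2 rising and 3 falling of 9 members are near the shares of all genes. PFKM rose by 0.47 per RIN unit on the log2 scale (SE 0.107, FDR 0.00052) and LDHA by 0.30 (SE 0.0907, FDR 0.0069). ALDOA fell by 0.35 (SE 0.0946, FDR 0.0026), PKM by 0.32 (SE 0.104, FDR 0.0113) and GAPDH by 0.24 (SE 0.0957, FDR 0.0419). The slopes of PGAM2, ENO3, GPI and PGK1 were -0.21, -0.14, -0.14 and 0.09.

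The zero point of these slopes moved with the scaling too, since the TMM factors, 0.65 to 1.24, were themselves related to RIN. With library size alone the median slope of all genes went from -0.010 to 0.30, and the calls from 2667 rising and 3108 falling to 6225 rising and 882 falling. On that scale PFKM (0.78), LDHA (0.61), PGK1 (0.40), GPI (0.18) and ENO3 (0.17) were called as rising, 5 of 9 and near the 55.8% of all genes, and ALDOA (-0.04) and PKM (-0.01) did not pass. Without the 2 pigs with RIN below 7, ALDOA (-0.36) and PFKM (0.37) were still called, and the slopes of GAPDH (-0.26), PKM (-0.28) and LDHA (0.26) missed the threshold, while 35.6% of all genes were called in either direction. In the 13 Duroc pigs alone 0 members and 0 genes (0%) were called (edgeR; 1824 genes of all had an unadjusted p under 0.05, and the lowest FDR was 0.225), with slopes of 0.60 for PFKM, 0.58 for LDHA and -0.44 for PKM. In Landrace alone 5 members and 42.9% of all genes were called. With no filter on low counts GAPDH was not called (-0.17, FDR 0.261), and 4 members and 6255 of 20225 genes were. Without Landrace 8, PGAM2 (-0.20, FDR 0.0914) joined the 5, beside 52.4% of all genes. Markers of other cell types moved with RIN as well: PDGFRA (1.62) and COL3A1 (0.93), 2 of the 4 fibroblast and matrix genes, rose, and the red cell genes HBB (-1.26) and ALAS2 (-1.05), the T cell gene CD3E (-0.67, 1 of 6 leukocyte genes) and the muscle filament gene DES (-0.35) fell. Their part in the glycolytic slopes was not tested.

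Without adjustment, the genes called for RIN had r of the same sign as their slopes. Among the 18 relations computed of 9 genes with RIN or FCR, by a two-sided permutation test on log2 CPM (n = 41), ALDOA had r = -0.61 with RIN (p = 8e-05, rho = -0.53) and GAPDH r = -0.51 (p = 0.00097, rho = -0.46). These p-values are not adjusted, and the model's FDR over all genes is the adjusted test. Without the 2 lowest-RIN pigs r was -0.52 and -0.44. In the 3 batches of at least 6 pigs ALDOA had r of -0.66, -0.22 and -0.83, and GAPDH -0.44, -0.05 and -0.81, the weakest in both cases being the batch of Landrace 8. PFKM had r = 0.46 with RIN (permutation p = 0.0036, n = 41), but rho was 0.19 and r was 0.25 without those 2 pigs, both Landrace. Within Duroc, which holds neither, it was 0.62. LDHA went from 0.32 to 0.13 without the 2 pigs, and was 0.28 within Duroc. PKM had r = -0.49 with RIN. PGAM2 (-0.38), ENO3 (-0.41) and GPI (-0.37) also fell with RIN without adjustment, though the model did not call them. Their r was -0.38, -0.42 and -0.26 without the 2 pigs.

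Ratios between members do not depend on library scaling, and they were computed after the slopes had been seen, so they are given without a test. PFKM counts per 1000 ALDOA counts ran from 22.9 to 82.4 (median 60.1). The 3 pigs of lowest RIN had the 3 lowest ratios, 24.4 in Landrace 1, 22.9 in Landrace 27 and 25.4 in Duroc 10, and the next lowest was 36.7 in Landrace 22, at RIN 7.1. The ratio had r = 0.84 with RIN over 41 pigs, 0.72 in Duroc, 0.89 in Landrace, 0.83, 0.83 and 0.93 in batches 2, 3 and 5, and 0.73 without the 2 lowest-RIN pigs. Its rank correlation was lower, at rho = 0.59. LDHA per 1000 ALDOA ran from 56.5 to 197 (r = 0.77, and 0.63 without the 2 pigs). GAPDH per 1000 ALDOA was steadier, from 846 to 1302 with a coefficient of variation of 9.1% (r = 0.32, and 0.18 without the 2 pigs). Measured against the mean of the 9 genes, the change per RIN unit was 0.53 (SE 0.069) for PFKM, 0.37 (SE 0.059) for LDHA and 0.15 (SE 0.045) for PGK1, and -0.19 (SE 0.051) for GAPDH, -0.25 (SE 0.062) for PKM and -0.30 (SE 0.042) for ALDOA. GPI, ENO3 and PGAM2 lay between, at -0.07, -0.09 and -0.15.

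**Figure D3:**
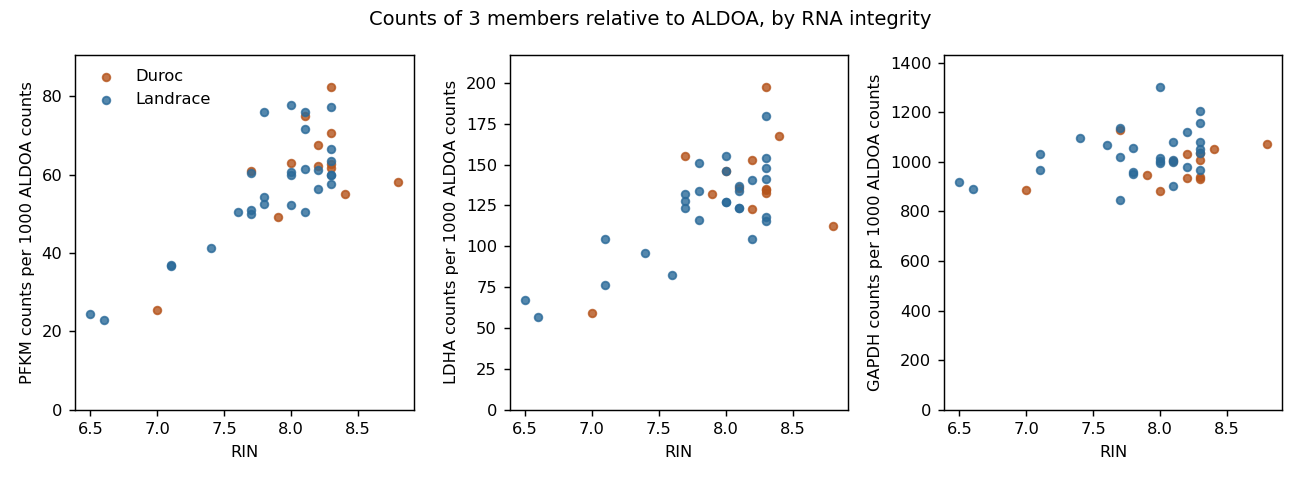
PFKM, LDHA and GAPDH counts per 1000 ALDOA counts in each pig (linear axis) against the pig's RNA integrity number, by breed. PFKM per 1000 ALDOA runs from 22.9 to 82.4, with the 3 pigs of lowest RIN at 25.4 or below, whereas GAPDH per 1000 ALDOA stays within 846 to 1302.

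The FCR comparison asked whether glycolytic transcripts track feed efficiency at a fixed breed, RIN, age and batch. No member passed: of all 11146 genes 0 (0%) had an FDR under 0.1 in edgeR, the lowest FDR being 0.284, while 968 had an unadjusted p under 0.05. limma called 0 genes and DESeq2 5 of 10765, with 0 members among them. The fitted slopes of all 9 genes were below 0, from -0.03 for PFKM to -0.14 for GPI per 0.1 FCR on the log2 scale, with a median of -0.11 against 0.0027 over all genes, of which 48.5% had slopes below 0. GPI (-0.14, SE 0.0471, FDR 0.529), ENO3 (-0.13), PKM (-0.14), ALDOA (-0.12), GAPDH (-0.11) and PGAM2 (-0.11) had an unadjusted p under 0.05, 6 of 9, where 4.41% of all genes were below 0 at that p. The 9 genes varied together and are not independent observations. Each interval was wide: for GPI it ran from -0.24 to -0.05, and for PFKM from -0.13 to 0.07. Markers lay in step with these slopes, and none of them was called: the 5 fast-fibre genes were all below 0 per 0.1 FCR (median -0.10), with TNNI2 at -0.13, TNNT3 at -0.11 and TNNC2 at -0.10 (FDR 0.535 to 0.559), and the adipocyte gene ADIPOQ stood at 1.085 (FDR 0.529). Their part in the members' slopes was not tested.

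Landrace 8, with a high FCR and the lowest glycolytic levels, carried part of these slopes. Without it, 4 genes (GPI, ENO3, ALDOA and PKM) had an unadjusted p under 0.05, beside 2.87% of all genes, the median slope was -0.08, and PFKM stood at 0.0057. With library size alone the median of all genes moved to 0.061, that of the 9 genes was -0.06 and 1 of them had an unadjusted p under 0.05. The pooled TPI1 and SPSB2 signal had a slope of -0.10 (FDR 0.551). Without adjustment, r with FCR was between -0.28 (PGAM2, permutation p = 0.074, n = 41) and -0.02 (GAPDH), and without Landrace 8 it ran from -0.18 (PGK1 and PGAM2) to 0.11 (GAPDH), with ALDOA (0.04) and PFKM (0.03) also above 0. Within Landrace r was -0.25 to -0.49 and within Duroc -0.50 to 0.03.

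The slope on FCR was not shown to differ between the breeds. An FCR by breed term had 0 calls among all genes (0%; edgeR, 582 with an unadjusted p under 0.05, and 0 by limma), and the largest estimate among the members was that of GAPDH, -0.18 (95% interval -0.36 to 0.01, FDR 0.922), which was -0.12 without Landrace 8. For age 1.76% of all genes and 0 of the 9 members were called. PFKM had the largest age estimate, -0.20 per 10 days (95% interval -0.43 to 0.02, FDR 0.359).

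The members varied together across pigs. On log2 CPM the 36 pairs had a median r of 0.67 (0.07 to 0.93, n = 41), whereas the median over all 62111085 pairs of tested genes was -0.004, with 49.4% above 0. The pigs share library scaling, batches and breed in such a correlation, and it is given without a test. After breed, RIN, FCR, age and batch had been fitted, the median among residuals was 0.69 and the lowest pair 0.45. With library size alone it was 0.54, beside 0.27 over all pairs. Landrace 8 contributed: without it the median was 0.55 on log2 CPM, with 31 of 36 pairs above 0, and 0.49 among residuals, where the lowest pair fell to 0.09.

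The closest pair was GAPDH and ALDOA (r = 0.93, and 0.91 without Landrace 8), followed by GAPDH and ENO3 (0.90). PFKM and LDHA had r = 0.68, and PGK1 and LDHA 0.76. The lowest pair was PKM and PFKM (0.07, and -0.28 without Landrace 8). GPI had the highest median r with the other 8 genes (0.78), and LDHA (0.43) and PFKM (0.34) the lowest. The leading principal component of the 9 genes held 66.0% of their variance and the next 18.2%, against 72.5% and 9.3% among residuals. The pooled TPI1 and SPSB2 signal had r = 0.80 with the mean of the 9 genes.

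**Figure D4:**
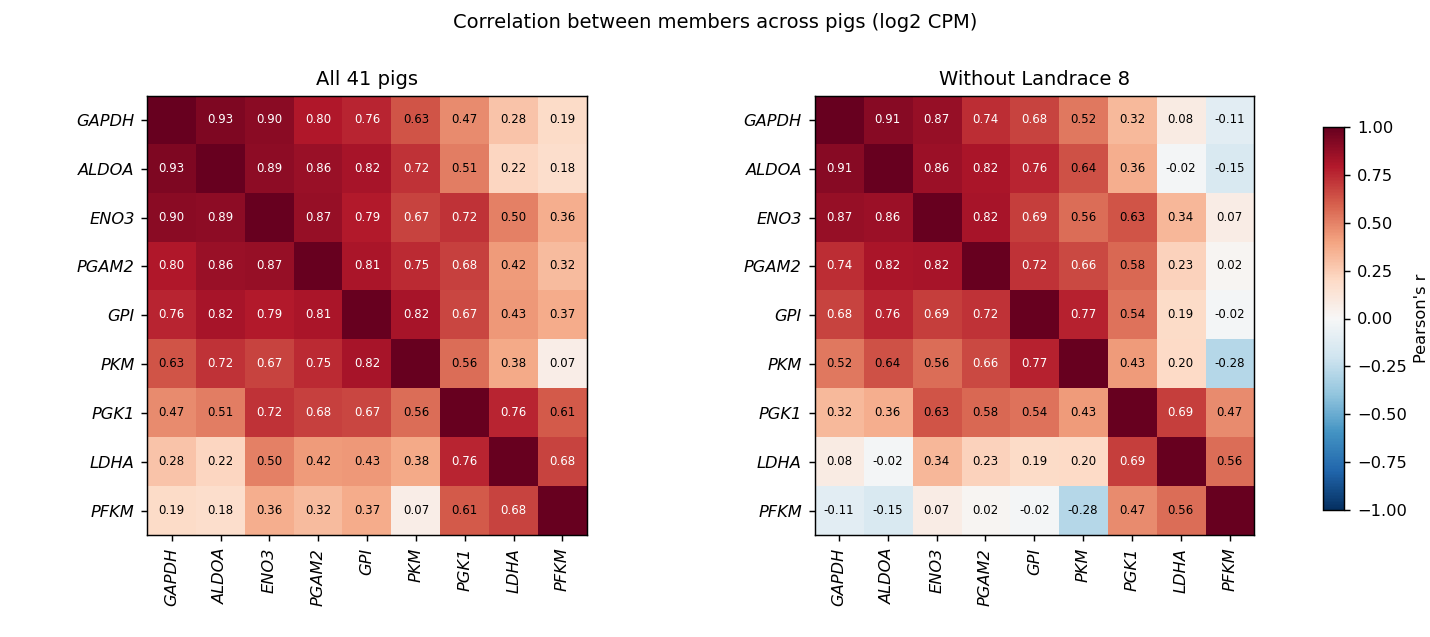
Pearson r between the 9 measured genes on log2 CPM, over all 41 pigs in one panel and without Landrace 8 in the other. GAPDH and ALDOA reach 0.93 with all 41 pigs and 0.91 without Landrace 8. PKM and PFKM have 0.07 and -0.28.

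Fast-fibre genes ran alongside most members. The summed level of the 5 fast-fibre genes had r = 0.94 with ALDOA (0.93 without Landrace 8), 0.89 with GAPDH, 0.84 with GPI, 0.83 with ENO3 and 0.81 with PGAM2, over 41 pigs. PKM had 0.67 and PGK1 0.51, whereas LDHA (0.19, and -0.02 without Landrace 8) and PFKM (0.14, and -0.16) had little relation to it. These values share the library scaling: the TMM factor itself had r from -0.85 (ALDOA) to 0.19 (PFKM) with the members. The slow-fibre sum had r = -0.60 with PFKM (-0.50 without Landrace 8) and -0.33 to 0.05 with the others (-0.19 to 0.28 without it). The r of the adipocyte sum ran from -0.75 with GAPDH (-0.71 without that pig) to -0.23 with PFKM (-0.07). That of the endothelial sum ran from -0.55 with GAPDH (-0.53) to -0.20 with PKM (-0.13). In the model on the TMM scale, TNNI2 (-0.65), TNNC2 (-0.56) and TNNT3 (-0.50) fell and ATP2A1 (0.66), the fast-fibre calcium pump, and ACTN3 (0.41) rose with RIN. Of the 6 slow-fibre genes 5 fell with it.

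**Figure D5:**
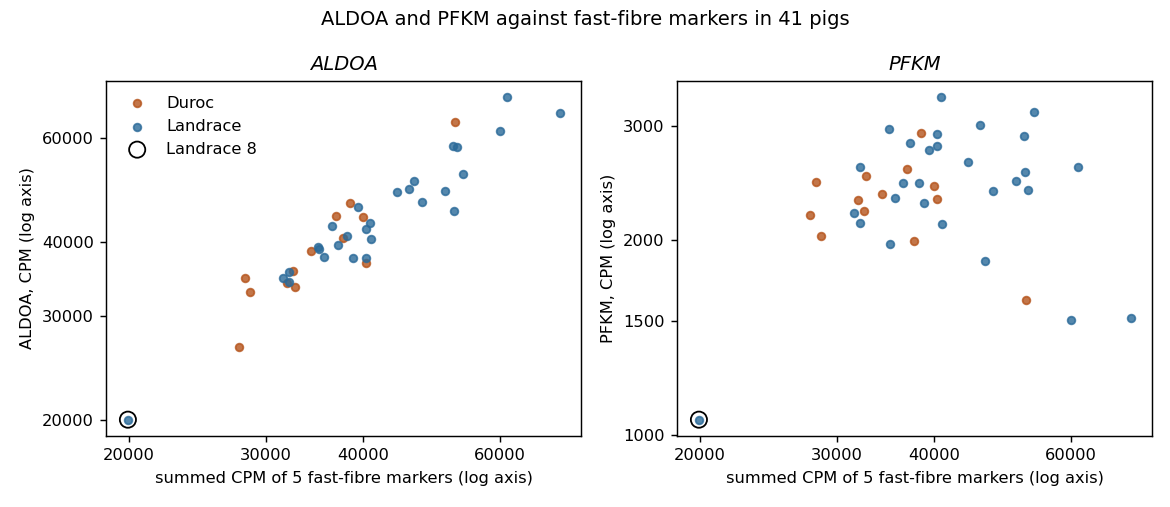
Level of ALDOA and PFKM in each pig against the summed level of the 5 fast-fibre marker genes, by breed, with Landrace 8 marked. Both axes are TMM-scaled CPM on a log scale. ALDOA follows the sum (r = 0.94) and PFKM does not (r = 0.14); Landrace 8 has the lowest sum, 19961 CPM.

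The genes outside the list whose log2 CPM was most like the mean of the 9 members over 41 pigs were TPM1 (r = 0.89), MYBPC2 (0.86), MYOZ3 (0.86), PYGM (0.85) and UBE2D2 (0.85). TPM1, MYBPC2 and MYOZ3 encode proteins of the sarcomere and its Z-disc, and PYGM is the muscle glycogen phosphorylase that feeds glucose phosphate into the pathway. The most opposed were ME2 (-0.76), a mitochondrial malic enzyme, GLCE (-0.74), ZNF436 (-0.74), ENSSSCG00000034697 (-0.74) and C1orf198 (-0.73). Among residuals TPM1 (0.86) and UBE2D2 (0.86) were again at the top, followed by BPGM (0.85), which makes and removes bisphosphoglycerate, AK1 (0.83), the muscle adenylate kinase, and TMEM109 (0.83). The log2 CPM list changed without Landrace 8, to TPM1 (0.83), UBE2D2 (0.81), PLPP7 (0.80), AK1 (0.80) and GNB1L (0.79). The most opposed were then SORBS3 (-0.76), ENSSSCG00000034697 (-0.75), ZNF436 (-0.74), IL1R1 (-0.73) and BCLAF3 (-0.71). MYBPC2, MYOZ3, PYGM, ME2, GLCE and C1orf198 thus left these lists.

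Other enzymes of the same steps and the D-lactate dehydrogenase LDHD took few counts. Of 19 listed, 17 were in the tables and 10 passed the filter. Mean levels were 118 CPM for ENO1, 49.0 CPM for LDHD, 12.5 CPM for PGAM1, 11.2 CPM for HK2, 9.48 CPM for PFKL, 7.16 CPM for HK1, 3.72 CPM for PFKP, 2.33 CPM for ALDOC and 0.706 CPM for HK3. Counted too low to test were, for example, GAPDHS, ENO2, ENO4, PKLR, LDHB and LDHC. By breed, HK1 (-0.72) and HK2 (-0.63), the hexokinases that trap glucose in the cell, PGAM1 (-0.59) and PFKL (-0.57) were lower in Landrace, 4 of the 10. The median of the 10 was -0.51, against 0.33 for the 9 members and -0.0024 for all genes. With RIN, PFKL (-0.53), LDHD (-0.32) and ENO1 (-0.17) fell and PGAM1 (0.23) rose. PFKL and PFKM, the liver and muscle forms of the same enzyme, thus had slopes of opposite sign.

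Among the 21 listed regulators and transporters, 18 were in the tables and 16 were tested. For breed 2 were called higher and 4 lower, and for RIN 4 rose and 4 fell, which are shares near those over all genes. In Landrace PFKFB3 (1.68) and PFKFB4 (0.53), which set the level of the activator of phosphofructokinase, were higher, and PFKFB2 (-0.73), the insulin-responsive glucose transporter gene SLC2A4 (-0.60), and PDHA1 (-0.38) and PDK2 (-0.32), a subunit and an inhibiting kinase of pyruvate dehydrogenase, were lower. With RIN, PFKFB3 (1.19), HIF1A (0.48), BPGM (0.22) and PDHB (0.16) rose and FBP2 (-0.50), the fructose bisphosphatase of muscle, MPC2 (-0.28), PDK1 (-0.26) and SLC2A4 (-0.26) fell. None of these genes was called for FCR. PFKFB3 varied widely, with a mean of 135 CPM and an SD of 192 in Duroc and 225 CPM and 376 in Landrace.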

How the data were processed

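The authors sequenced paired 100 bp reads on a BGISEQ-500 without strand marking, trimmed them with Trimmomatic 0.39 and aligned them with STAR 2.7.1a (versions per the submitters' processing notes) to Sscrofa11.1 with Ensembl release 96. They deposited 1 table of raw counts per pig, with unstranded, sense and antisense columns. Pairs on several loci or on overlapping genes are in no gene's unstranded count. Coordinates and symbols come from RefSeq and Ensembl tables of Sscrofa11.1, and 14857 identifiers had a symbol.

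Unstranded counts were analysed in R 4.3.3 with edgeR 4.0.16 (TMM scaling, filterByExpr with a minimum of 10 counts, quasi-likelihood test). Breed, FCR, RIN, age and the 5 batches entered 1 model, with Benjamini-Hochberg FDR under 0.1 over 11146 genes. Log2 CPM used a prior count of 2. Permutation tests drew 100000 resamples (SciPy 1.17.1). DESeq2 1.42.0 and limma 3.58.1 were alternatives. The scripts were tested on simulated counts. No 2 libraries agreed within sampling noise (lowest chi-squared per degree of freedom 16.8). Depth limits the scarce isozymes, not the members. The members and all gene lists were chosen with earlier results of these data known. All members were named, the isozymes that passed the filter, regulators and markers past the threshold, and the 5 genes of highest and of lowest correlation with the members' mean. TPI1 could not be tested, so 18 relations and 36 pairs were computed in place of 20 and 45. Some genes of the wider list are not reported here. Left out were sequences and transcript lengths, not used here.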

Additional observations from a re-analysis of the deposited data

Results flagged for a closer look

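TPI1 drew attention because its signal lies in columns that the comparisons did not use. The sense and antisense columns held a mean of 80159 counts per pig for TPI1, whereas the unstranded column held at most 7. Those pairs were a median of 3.39% of the pairs set aside as ambiguous in a library, and at most 4.45%. Among 2203 genes with a mean strand sum of at least 1000 counts, 289 (13.1%) had a strand sum more than 2 times their unstranded count.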

How the results depend on the processing

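Over the alternatives with a test, 111 values for breed, 116 for RIN and 131 for FCR kept their sign and their side of the threshold; 2, 5 and 4 changed sign. Among all of these, 10 breed and 12 RIN calls were lost, and 3 and 5 were gained. The cause of the exceptions was not tested. With library size alone, 2 members were called for breed, the RIN slopes of GAPDH, PGAM2, ENO3 and GPI turned to 0.069, 0.099, 0.17 and 0.18, and the FCR slope of PFKM to 0.027. Without the pigs of RIN below 7, 2 members and 35.6% of all genes were called for RIN. In Duroc alone 0 of either were called, with fewer samples, and the RIN slope of ENO3 was 0.034 and the FCR slopes of GAPDH and LDHA 0.0058 and 0.0098. The breed difference of PKM was 0.039 with age left out and 0.095 with RIN left out, and it was not called in either. Measured against the mean of the 9 members, with no test, the breed differences of PGK1 (-0.057), PGAM2 (-0.12) and GPI (-0.027) and the FCR slopes of PGK1 (0.046), LDHA (0.035) and PFKM (0.071) had the other sign. The 9 values on that scale sum to 0 by construction, so some sign changes were fixed in advance. The other breed differences on that scale were 0.18 for GAPDH, 0.14 for ENO3, 0.12 for PFKM, 0.07 for ALDOA, 0.032 for LDHA and -0.33 for PKM. PFKM had an FCR slope of 0.0057 without Landrace 8. As a share of all read pairs the 9 genes took 9.21% in Duroc and 9.84% in Landrace, and 15.8% and 16.8% when ACTA1 and mitochondrially encoded genes were left out of the total. Each breed had more than 10 pigs, so pigs were not left out in turn; those left out were Landrace 8 and the pigs of low RIN.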
